A study of Mus musculus with 9 samples.

Results

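The 34 genes described here code for the proteins of the mouse complement system: its components, the regulators that hold it in check and the receptors that read its products. They were chosen by gene symbol from a deposited table of 54532 genes, by a rule that uses no measured value but was written with earlier results of these data known. By role, 10 belong to the classical and lectin pathways, 4 to the alternative pathway (C3 among them), 4 to the terminal pathway, 8 are regulators and 8 are receptors. The values are FPKM, fragments per kilobase of transcript, scaled by the authors for the size of each library. Of the 34 genes, 24 reached 1 FPKM or more in 3 or more of the 9 libraries and were tested. The other 10 were too low to be tested and are given by their reads.

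RNA came from flat mounts of choroid and retina, taken from C57BL/6 mice in 3 groups of 3 libraries. The BetP-Gel@Ran group is labelled as taken 3 months after BetP-Gel was injected into the vitreous. The CNV group, an abbreviation used in this field for choroidal neovascularisation, carries titles that name wet age-related macular degeneration. The untreated mice are the third group. The series concerns a hydrogel that carries ranibizumab, an antibody fragment made against human vascular endothelial growth factor A, but the treatment label of the BetP-Gel@Ran group names the gel alone and does not say whether these mice had CNV. No sampling time is given for CNV or untreated mice, so the time since injection and the treatment cannot be told apart. Age is not given for any group. The labels do not state that libraries of the same group are different animals. The p-values therefore rest on how far these samples lie apart, which may be technical spread only.

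Complement is a cascade of plasma and locally made proteins. The classical pathway starts when C1q binds antibody or other ligands and activates the proteases C1r and C1s, which cleave C4 and C2, while the alternative pathway runs through C3, factor B, factor D and properdin. All routes meet at C3, whose fragments coat targets and signal to myeloid cells, and continue through C5 to a pore made of the terminal components. In the retina, microglia and macrophages are known producers of C1q, and complement genes are linked to age-related macular degeneration in people.

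The libraries held 16990118 to 18753737 reads on genes. Marker genes matched the labelled tissue in part: 7 rod markers summed to 1151 to 1607 FPKM in BetP-Gel@Ran libraries, 859 to 1032 in CNV libraries and 2309 to 3379 in untreated libraries. Markers of the retinal pigment epithelium summed to 182 to 202 FPKM in BetP-Gel@Ran, 184 to 299.9 in CNV and 174 to 290.2 in untreated libraries. Markers of cornea summed to 11794 to 14231 FPKM in BetP-Gel@Ran, 7523 to 9049 in CNV and 16205 to 19120.0 in untreated libraries, and those of skeletal muscle to 748 to 899, 544 to 914 and 3498 to 3915 FPKM in BetP-Gel@Ran, CNV and untreated libraries. The samples thus held more than choroid and retina. Lens markers summed to 836 to 3038 FPKM in BetP-Gel@Ran and 13.5 to 87.1 in CNV libraries, with no overlap. The rod and cornea sums separated all 3 groups with no overlap, and the muscle sum was highest in every untreated library. The part of these tissues in the differences between groups, those of CNV against untreated libraries included, was not tested. Untreated replicate 3 stood apart in lens markers, at 10993 FPKM against 247 and 245 in the other untreated libraries. CNV replicate 2 was highest in red cell markers, at 19406 FPKM against 6421 and 7499 in the other CNV libraries. In such bulk tissue, fewer cells of a type and less RNA per cell cannot be told apart.

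Members lay in several clusters of the mm10 genome. C1qb, C1qc and C1qa sat side by side on the minus strand of chromosome 4, at 136880129 to 136886187, 136889804 to 136893065 and 136895917 to 136898803, with 3.617 kb and 2.852 kb between them. C1rl, C1ra and C1s1 lay together on chromosome 6 between 124493113 and 124542359. C4b, Cfb and C2 lay on chromosome 17 between 34728380 and 34898265, with 0.086 kb between Cfb and C2, and C3 lay on the same chromosome at 57203970 to 57228136. C6 and C7 were neighbours on chromosome 15, C5ar2 and C5ar1 on chromosome 7, and Itgam and Itgax on chromosome 7.

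The stretches of 250 bases before the start of 4 members are shown because they differed in the tests that follow: C1qb and C1qc were lower in BetP-Gel@Ran than in CNV libraries, while C3 and C7, whose rises in CNV libraries were among the largest, did not pass that test. They are RefSeq promoter windows of build GRCm38.p6, read 5′ to 3′ on the minus strand at chr4:136886201-136886450, chr4:136892915-136893164, chr17:57228137-57228386 and chr15:5063774-5064023, and capitals mark motif matches. RefSeq starts need not be those of the deposited table.
C1qb: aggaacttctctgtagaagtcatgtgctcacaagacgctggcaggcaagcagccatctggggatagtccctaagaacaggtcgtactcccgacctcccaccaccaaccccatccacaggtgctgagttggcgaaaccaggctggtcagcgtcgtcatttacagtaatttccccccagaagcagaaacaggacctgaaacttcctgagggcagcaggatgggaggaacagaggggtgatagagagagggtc
C1qc: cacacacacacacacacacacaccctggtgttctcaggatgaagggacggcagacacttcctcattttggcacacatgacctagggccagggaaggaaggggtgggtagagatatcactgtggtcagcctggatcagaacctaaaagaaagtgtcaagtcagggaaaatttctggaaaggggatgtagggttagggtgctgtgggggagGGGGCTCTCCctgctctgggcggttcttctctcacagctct
C3: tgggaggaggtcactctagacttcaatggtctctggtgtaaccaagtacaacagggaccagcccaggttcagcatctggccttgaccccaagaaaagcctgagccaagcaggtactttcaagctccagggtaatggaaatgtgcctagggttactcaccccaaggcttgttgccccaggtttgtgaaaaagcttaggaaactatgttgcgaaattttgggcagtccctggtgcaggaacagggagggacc
C7: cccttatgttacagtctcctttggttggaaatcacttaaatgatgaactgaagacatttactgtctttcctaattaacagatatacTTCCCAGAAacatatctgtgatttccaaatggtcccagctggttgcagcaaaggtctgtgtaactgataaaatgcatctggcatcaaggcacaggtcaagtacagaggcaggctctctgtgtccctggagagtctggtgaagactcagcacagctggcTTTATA
In C1qc the capitals are a match to the kappa B motif, whose first base lies 41 bases before the start. In C7 they are a STAT type match (TTCNNNGAA) 164 bases before the start and a TATAAA on the opposite strand 6 bases before it. The windows of 26 members, 29 windows of 250 bases before to 50 after a start, were searched on both strands for these motifs and for an interferon type motif, GAAA and GAAA with any 2 bases between them. A STAT type match stood in 4 of the 29 windows, against 8.3% of all 32851 windows, and an interferon type match in 3, against 3.44%. Kappa B stood in 1 of the 29, against 8.46%, and TATAAA in 5, against 13.6%, counting the one in the C3 window, which begins at base 15 after the start. Matches to different motifs did not overlap in the printed stretches. A match is a description of letters, not of a bound site.

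CNV libraries held more RNA of most complement members than untreated libraries did. Of the 24 members tested, 16 rose and 2 fell in CNV against untreated libraries, where 22.5% of all 14086 tested genes rose and 22.1% fell, and the median log2 change was 1.06 for the members and 0.006 for all genes. BetP-Gel@Ran libraries were lower than CNV libraries in 9 of the 24 members and higher in 0, where 8.27% of all genes fell and 5.81% rose, with a median of -0.13 for the members and 0.0 for all genes. At an unadjusted p under 0.05, 1 member was higher and 10 were lower, where 15.0% of all genes were higher and 17.1% lower. With limma voom on the recovered reads 0 members were higher and 9 lower, with Clu among them and Vsig4 not, where 7.33% of all genes were higher and 9.39% lower. Against untreated libraries, BetP-Gel@Ran libraries were higher in 15 members and lower in 2, where 16.1% of all genes rose and 18.1% fell, with a median of 0.68 for the members and -0.006 for all genes. The comparisons share groups, so their counts are not independent of each other. C7, C3ar1, C5ar1 and Vsig4 reached 1 FPKM in no untreated library, so the filter kept them through the groups where they were higher. Every log2 change is of FPKM + 1, which understates the change of low genes, with its SE. Adjusted p-values come from limma with Benjamini-Hochberg adjustment over all 14086 genes, and a gene is said to have risen or fallen where its adjusted p was under 0.05.

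The counts were not equally firm. In CNV against untreated libraries, 17 of the 18 calls held under every alternative in which the gene was tested, and the exception was C1qbp. Cfp and Itgb2 alone of the 9 calls in BetP-Gel@Ran against CNV libraries did so. The 9 lower members became 2 without BetP-Gel@Ran replicate 2 or without CNV replicate 1, 3 without CNV replicate 2, 4 without BetP-Gel@Ran replicate 3 and 6 without BetP-Gel@Ran replicate 1. They became 10 without CNV replicate 3, 4 with no filter on low values and 6 with only the 2 groups in the fit. Of the 17 calls in BetP-Gel@Ran against untreated libraries 14 held throughout, and C1qc, C5ar1 and Cd59a lost theirs in at least 1 alternative.

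**Figure D1:**
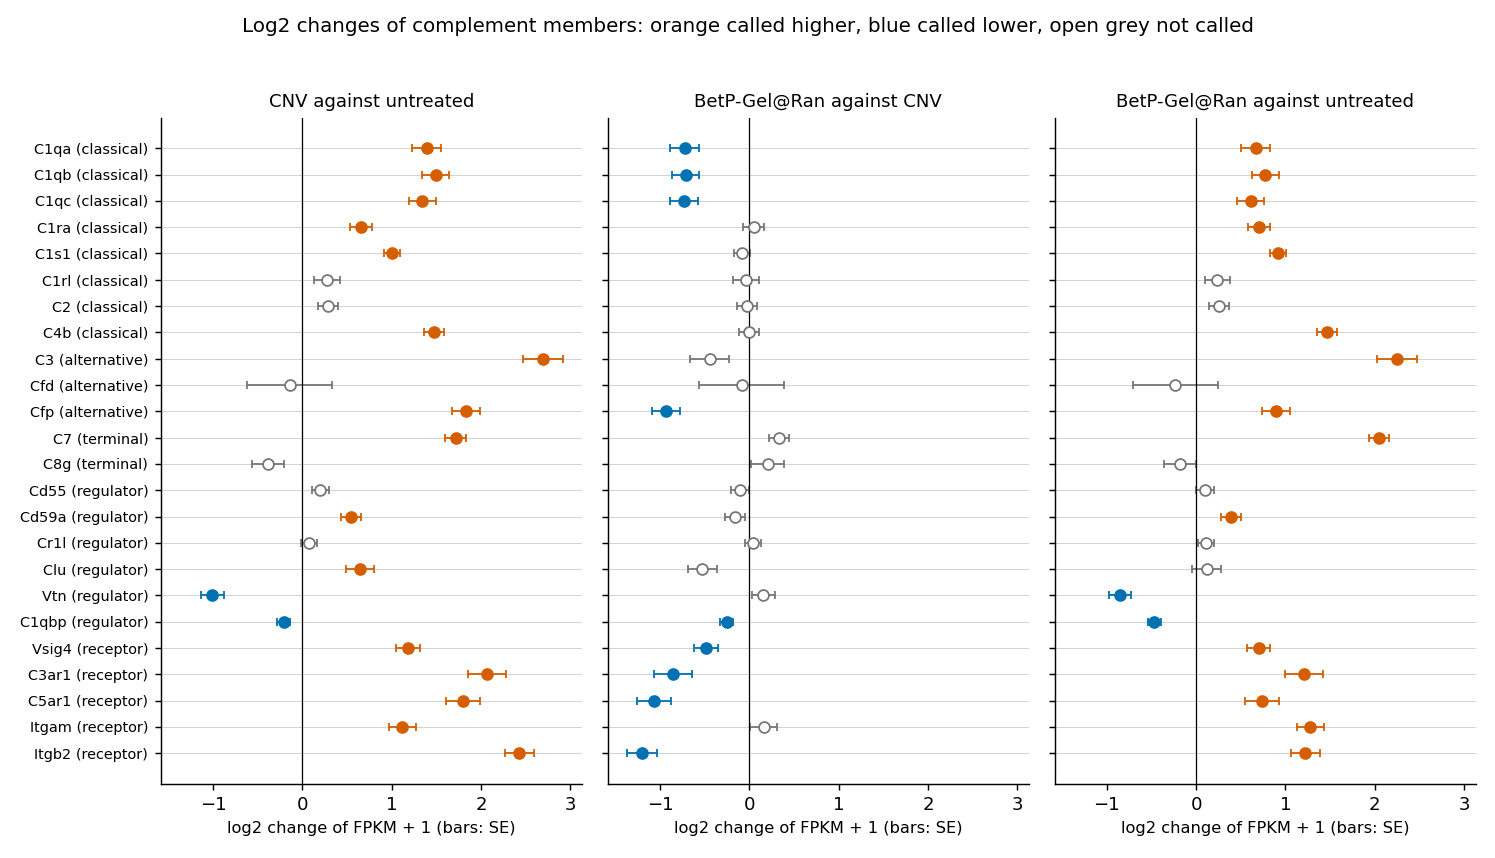
Log2 change of FPKM + 1 (x axis) with its SE for the 24 tested members (rows, by role), in 1 panel for each comparison. Filled orange points rose, filled blue points fell and open grey points did not pass the test: 16 rose and 2 fell in CNV against untreated, 0 and 9 in BetP-Gel@Ran against CNV, and 15 and 2 in BetP-Gel@Ran against untreated.

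The plot of log2 changes shows C3, Itgb2 and C3ar1 farthest to the right in CNV against untreated libraries. In its middle panel the filled points are all left of 0, and C4b, C1ra, C1rl, C2 and Cr1l lie close to 0.

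Of the 8 tested members of the classical and lectin pathways, 6 rose in CNV against untreated libraries and 3 fell in BetP-Gel@Ran against CNV libraries. In BetP-Gel@Ran against untreated libraries 6 rose. The shares over all tested genes were 22.5%, 8.27% and 16.1%. The 3 that fell were the chains of C1q, the recognition molecule of the pathway. C1qa, its A chain, was at 123, 86.7 and 106 FPKM in BetP-Gel@Ran libraries 1 to 3, 170.3, 213 and 142 in CNV libraries and 66.3, 66.2 and 63.7 in untreated libraries. C1qb, the B chain, was at 129.8, 102 and 122 FPKM in BetP-Gel@Ran libraries, 186, 241 and 159.8 in CNV libraries and 73.8, 61.9 and 69.01 in untreated libraries. C1qc, the C chain, was at 54.1, 37.98 and 47.4 FPKM in BetP-Gel@Ran libraries, 81.99, 89.5 and 62.3 in CNV libraries and 30.7, 31.00 and 27.8 in untreated libraries. For each chain the groups did not overlap: every BetP-Gel@Ran library lay below every CNV library and above every untreated one. BetP-Gel@Ran replicate 2 was the lowest and CNV replicate 2 the highest of its group for all 3 chains. The mean of C1qb was 118 ± 14.2 FPKM in BetP-Gel@Ran, 196 ± 41.5 in CNV and 68.2 ± 5.99 in untreated libraries (SD, n = 3 each).

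In CNV against untreated libraries the log2 changes were 1.39 ± 0.16 for C1qa (adjusted p = 0.000162), 1.49 ± 0.15 for C1qb (adjusted p = 9.11e-05) and 1.34 ± 0.15 for C1qc (adjusted p = 0.00017). In BetP-Gel@Ran against CNV libraries they were -0.72 ± 0.16, -0.71 ± 0.15 and -0.73 ± 0.15 for the same chains, with adjusted p-values of 0.0221, 0.0208 and 0.02. The chains were at 0.601, 0.602 and 0.597 times the CNV mean FPKM. These calls were lost without BetP-Gel@Ran replicate 2 or 3, without CNV replicate 1 or 2 and with no filter, and for C1qa also with only the 2 groups in the fit, with adjusted p-values of at most 0.0731, 0.0733 and 0.0731, and the log2 change stayed at -0.55 or lower for C1qb whichever library was left out. Against untreated libraries the BetP-Gel@Ran libraries were still higher, by 0.67 ± 0.16 for C1qa (adjusted p = 0.0112), 0.78 ± 0.15 for C1qb (adjusted p = 0.0048) and 0.61 ± 0.15 for C1qc (adjusted p = 0.0146), and C1qc lost this call without BetP-Gel@Ran replicate 3. The chains kept nearly the same proportions in all 9 libraries, with a C1qa to C1qb ratio of FPKM of 0.849 to 1.07 and a C1qc to C1qb ratio of 0.371 to 0.501.

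For the genes that act just after C1q, no difference between BetP-Gel@Ran and CNV libraries passed the test. C4b, the component cleaved by C1s, was at 12.2, 15.6 and 10.9 FPKM in BetP-Gel@Ran libraries, 12.7, 13.3 and 12.4 in CNV libraries and 3.88, 3.76 and 4.30 in untreated libraries. The BetP-Gel@Ran and CNV libraries overlapped, and each of them lay above every untreated library. C4b rose by 1.47 ± 0.11 in CNV against untreated libraries (adjusted p = 2.26e-05) and by 1.47 ± 0.11 in BetP-Gel@Ran against untreated libraries (adjusted p = 4.96e-05). Its change in BetP-Gel@Ran against CNV libraries was -0.0032, with a 95% interval of -0.26 to 0.25 (adjusted p = 0.988). Reads of C4b and its near-identical copy C4a could have been split in counting, so its level is uncertain.

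C1s1, the protease that cleaves C4 and C2, was at 21.8, 26.3 and 23.01 FPKM in BetP-Gel@Ran libraries, 25.5, 22.9 and 27.2 in CNV libraries and 11.7, 12.2 and 12.2 in untreated libraries. C1ra, the protease that activates C1s, was at 15.4, 17.2 and 15.3 FPKM in BetP-Gel@Ran libraries, 17.7, 12.2 and 16.7 in CNV libraries and 9.31, 9.48 and 9.35 in untreated libraries. For both proteases the BetP-Gel@Ran and CNV libraries overlapped and lay above all untreated ones. C1s1 rose by 1.003 ± 0.088 in CNV against untreated libraries (adjusted p = 4.04e-05) and C1ra by 0.66 ± 0.12 (adjusted p = 0.00202). They also rose in BetP-Gel@Ran against untreated libraries, by 0.92 ± 0.088 (adjusted p = 0.000142) and 0.71 ± 0.12 (adjusted p = 0.00246). The 95% interval in BetP-Gel@Ran against CNV libraries was -0.28 to 0.11 for C1s1 and -0.22 to 0.32 for C1ra. Both have a near-identical copy, C1s2 and C1rb, and C1s1 shares 18.4% of its exon bases with the antisense gene Gm16567, listed at 0. C2, the protease of the classical C3 convertase, and C1rl, a C1r-like gene, ranged from 1.69 to 3.18 FPKM and from 1.07 to 2.13 FPKM over the 9 libraries and passed the test in no comparison. Every CNV library lay above every untreated library for C2 and for C1rl (adjusted p = 0.0589 and 0.155), and C2 passed there in 4 of 18 alternatives. C2 shares 42.8% of its exon bases with Gm20547, listed at 0.

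Of the 3 tested members of the alternative pathway, 2 rose in CNV against untreated libraries and 1 fell in BetP-Gel@Ran against CNV libraries. The shares over all tested genes were 22.5% and 8.27%. C3, the component on which all routes converge, was at 18.9, 13.98 and 13.6 FPKM in BetP-Gel@Ran libraries, 26.4, 16.2 and 22.2 in CNV libraries and 2.90, 3.07 and 1.55 in untreated libraries. BetP-Gel@Ran replicate 1 lay above CNV replicate 2, so those groups overlapped, and every untreated library lay far below both. The means were 15.5 ± 2.96 FPKM in BetP-Gel@Ran, 21.6 ± 5.14 in CNV and 2.51 ± 0.829 in untreated libraries (SD, n = 3 each). C3 had the largest change of the 24 members on the log2(FPKM + 1) scale in CNV against untreated libraries, 2.69 ± 0.22 (adjusted p = 3.16e-05). Its ratio of mean FPKM was 8.63, below those of C7 and Itgb2, at 12.6 and 9.59. In BetP-Gel@Ran against untreated libraries it rose by 2.25 ± 0.22 (adjusted p = 0.000173), a ratio of 6.19. In BetP-Gel@Ran against CNV libraries its change was -0.44 ± 0.22, with a 95% interval of -0.94 to 0.055 and an adjusted p of 0.201, and it passed in 0 of 19 alternatives.

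Cfp, which codes for properdin, the protein that stabilises the alternative C3 convertase and is stored in neutrophils and made by other myeloid cells, was at 14.6, 11.2 and 11.9 FPKM in BetP-Gel@Ran libraries, 26.5, 30.1 and 18.9 in CNV libraries and 5.91, 6.16 and 6.64 in untreated libraries. No groups overlapped, and BetP-Gel@Ran libraries were in the middle. Cfp fell by 0.93 ± 0.16 in BetP-Gel@Ran against CNV libraries (adjusted p = 0.0103), to 0.499 times the CNV mean, and adjusted p-values over the 19 alternatives were 0.000538 to 0.046. It rose by 1.83 ± 0.16 in CNV against untreated libraries (adjusted p = 3.78e-05) and by 0.90 ± 0.16 in BetP-Gel@Ran against untreated libraries (adjusted p = 0.00289). Cfd, factor D, known mostly as a product of fat cells, was at 16.1, 7.09 and 5.43 FPKM in BetP-Gel@Ran libraries, 10.1, 6.06 and 12.6 in CNV libraries and 19.4, 5.92 and 9.21 in untreated libraries. Its libraries differed widely within each group, all groups overlapped, and it passed no test, with a 95% interval of -1.23 to 0.94 in CNV against untreated libraries.

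Of the 4 terminal pathway members 2 could be tested. Of these, 1 rose in CNV and in BetP-Gel@Ran against untreated libraries, where 22.5% and 16.1% of all genes rose. C7, which joins the forming membrane attack complex, was at 3.84, 4.29 and 4.25 FPKM in BetP-Gel@Ran libraries, 3.24, 2.60 and 3.41 in CNV libraries and 0.242, 0.400 and 0.0926 in untreated libraries. All BetP-Gel@Ran libraries lay above all CNV libraries, and both groups lay far above the untreated one, where C7 had 11, 19 and 4 reads. C7 rose by 1.72 ± 0.11 in CNV against untreated libraries (adjusted p = 1.26e-05), a ratio of mean FPKM of 12.6. In BetP-Gel@Ran against untreated libraries it rose by 2.05 ± 0.11 (adjusted p = 1.26e-05), a ratio of 16.8. The ratios rest on few reads in the untreated libraries, where C7 never reached 1 FPKM, so it was tested only through the other groups. Between BetP-Gel@Ran and CNV libraries the change was 0.33 ± 0.11, with a 95% interval of 0.074 to 0.59 and an adjusted p of 0.0819, and adjusted p-values over 18 alternatives were 0.0526 to 0.363. C8g, the small subunit of C8, ranged from 0.541 to 1.51 FPKM, overlapped between all groups and passed no test, and its gene span overlaps Fbxw5.

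Of the 6 tested regulators, 2 rose and 2 fell in CNV against untreated libraries, and 1 fell in BetP-Gel@Ran against CNV libraries. Over all tested genes 22.5% rose and 22.1% fell in the first comparison, and 8.27% fell in the second. These counts are small and do not set the regulators apart from other genes. Clu, or clusterin, a secreted chaperone that also keeps the terminal complex out of membranes, was the most abundant member, at 212, 255 and 241 FPKM in BetP-Gel@Ran libraries, 284, 453 and 306 in CNV libraries and 209, 226 and 216 in untreated libraries. All CNV libraries lay above the others, CNV replicate 2 stood well above the rest, and BetP-Gel@Ran and untreated libraries overlapped. Clu rose by 0.64 ± 0.16 in CNV against untreated libraries (adjusted p = 0.00985). Its change in BetP-Gel@Ran against CNV libraries was -0.53 ± 0.16, with a 95% interval of -0.89 to -0.17 and an adjusted p of 0.0573, which missed the threshold, and it passed in 5 of 19 alternatives. Against untreated libraries the BetP-Gel@Ran interval was -0.24 to 0.48.

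Vtn, or vitronectin, which also holds back the terminal complex and serves in cell adhesion, was lower in both other groups than in untreated libraries. It was at 59.3, 66.1 and 49.3 FPKM in BetP-Gel@Ran libraries, 50.3, 50.1 and 54.9 in CNV libraries and 119, 109 and 89.9 in untreated libraries. Every untreated library lay above all the others, while BetP-Gel@Ran and CNV libraries overlapped. Vtn fell by 1.01 ± 0.13 in CNV against untreated libraries (adjusted p = 0.000287) and by 0.85 ± 0.13 in BetP-Gel@Ran against untreated libraries (adjusted p = 0.00143). Rod markers, summed above, were lower in the same groups, with 6 of 7 called lower in each of these comparisons. So were skeletal muscle markers, with 5 of 5 called lower in each, and fibroblast markers, with 4 of 6 and 2 of 6. Of all genes, 22.1% and 18.1% were called lower there. The part of rods or of the other tissues in the Vtn result was not tested. C1qbp, which codes for a protein of mitochondria that can bind the C1q head, was at 18.1, 18.8 and 17.2 FPKM in BetP-Gel@Ran libraries, 21.6, 22.97 and 20.5 in CNV libraries and 26.5, 24.6 and 24.7 in untreated libraries. The groups did not overlap and the differences were small, -0.25 ± 0.070 in BetP-Gel@Ran against CNV libraries (adjusted p = 0.0436) and -0.21 ± 0.070 in CNV against untreated libraries (adjusted p = 0.0339). The call against CNV libraries held in 6 of 19 alternatives, the one of CNV against untreated libraries in 9 of 19, and that of BetP-Gel@Ran against untreated libraries, -0.47 ± 0.070 (adjusted p = 0.00145), in all 19.

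Cd59a, a membrane protein that blocks the last step of the terminal complex, was at 32.6, 35.6 and 29.1 FPKM in BetP-Gel@Ran libraries, 37.2, 33.8 and 37.5 in CNV libraries and 21.3, 24.1 and 28.4 in untreated libraries. Every BetP-Gel@Ran and CNV library lay above every untreated one, and BetP-Gel@Ran and CNV libraries overlapped. Cd59a rose by 0.55 ± 0.11 in CNV against untreated libraries (adjusted p = 0.0038) and by 0.39 ± 0.11 in BetP-Gel@Ran against untreated libraries (adjusted p = 0.0251), where the call was lost without BetP-Gel@Ran replicate 1 or 2, without untreated replicate 1 or 2 and with no filter (adjusted p up to 0.0871). Cd55, which speeds the decay of C3 convertases, was at 3.55, 3.44 and 4.003 FPKM in BetP-Gel@Ran libraries, 3.74, 3.60 and 4.70 in CNV libraries and 3.50, 3.04 and 3.51 in untreated libraries. The CNV libraries lay above the untreated ones, and BetP-Gel@Ran libraries overlapped with both. Cd55 did not pass: the 95% interval was -0.32 to 0.12 in BetP-Gel@Ran against CNV libraries and -0.022 to 0.42 in CNV against untreated libraries. Both have a related copy, Cd59b and Cd55b. Cr1l, which codes for Crry, the rodent regulator of C3 on cell surfaces, ranged from 4.33 to 5.69 FPKM, overlapped between all groups and passed no test.

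Of the 8 receptors 5 could be tested, and all 5 rose in CNV and in BetP-Gel@Ran against untreated libraries. In BetP-Gel@Ran against CNV libraries 4 of them fell. Over all tested genes 22.5% and 16.1% rose and 8.27% fell in these comparisons. C3ar1, C5ar1 and Vsig4 reached 1 FPKM in no untreated library. They passed the filter through the groups where they were higher, so the count of 5 rises is not independent of the filter. Itgb2, the integrin beta chain that pairs with Itgam or Itgax to form complement receptors 3 and 4 of leukocytes, was at 2.90, 3.76 and 4.75 FPKM in BetP-Gel@Ran libraries, 9.38, 11.9 and 8.75 in CNV libraries and 0.791, 1.38 and 0.954 in untreated libraries. No groups overlapped, and BetP-Gel@Ran libraries were in the middle. On the log2(FPKM + 1) scale it had the largest fall of the members in BetP-Gel@Ran against CNV libraries, -1.20 ± 0.17 (adjusted p = 0.0051), to 0.380 times the CNV mean FPKM, while C5ar1 was at 0.368 times. For Itgb2, adjusted p-values over 19 alternatives were 0.00185 to 0.0276. It rose by 2.43 ± 0.17 in CNV against untreated libraries (adjusted p = 1.4e-05) and by 1.22 ± 0.17 in BetP-Gel@Ran against untreated libraries (adjusted p = 0.000893).

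Itgam, the alpha chain of complement receptor 3 and a partner of Itgb2, did not pass the test against CNV libraries. It was at 12.1, 11.7 and 13.5 FPKM in BetP-Gel@Ran libraries, 10.3, 10.7 and 12.1 in CNV libraries and 5.35, 5.27 and 3.23 in untreated libraries. BetP-Gel@Ran and CNV libraries overlapped, and both groups lay above all untreated libraries. Itgam rose by 1.12 ± 0.15 in CNV against untreated libraries (adjusted p = 0.00036) and by 1.28 ± 0.15 in BetP-Gel@Ran against untreated libraries (adjusted p = 0.000392), and its 95% interval in BetP-Gel@Ran against CNV libraries was -0.17 to 0.49 (adjusted p = 0.486). The ratio of Itgam to Itgb2 FPKM was 2.84 to 4.17 in BetP-Gel@Ran libraries, 0.901 to 1.38 in CNV libraries and 3.39 to 6.76 in untreated libraries. Itgam shares 68.7% of its exon bases with Gm49368 on the same strand, so its reads depend on how shared exons were counted, a setting the labels do not state.

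C5ar1, the receptor for the inflammatory fragment C5a, was at 1.82, 1.75 and 2.41 FPKM in BetP-Gel@Ran libraries, 5.38, 7.29 and 3.55 in CNV libraries and 0.665, 0.876 and 0.820 in untreated libraries. C3ar1, the receptor for C3a, was at 3.10, 2.57 and 4.32 FPKM in BetP-Gel@Ran libraries, 6.07, 9.87 and 5.03 in CNV libraries and 0.725, 0.850 and 0.979 in untreated libraries. For both, every BetP-Gel@Ran library lay below the CNV and above the untreated ones, and CNV replicate 2 was the highest library for each. C5ar1 fell by 1.06 ± 0.19 in BetP-Gel@Ran against CNV libraries (adjusted p = 0.0122) and C3ar1 by 0.86 ± 0.21 (adjusted p = 0.0316). The C5ar1 call was lost without BetP-Gel@Ran replicate 2 or CNV replicate 1 (adjusted p up to 0.051), and the C3ar1 call held in 12 of 19 alternatives, with an adjusted p of up to 0.103. In CNV against untreated libraries they rose by 1.80 ± 0.19 (adjusted p = 0.000114) and 2.07 ± 0.21 (adjusted p = 9.73e-05), and in BetP-Gel@Ran against untreated libraries by 0.74 ± 0.19 (adjusted p = 0.0162) and 1.21 ± 0.21 (adjusted p = 0.00299). C5ar1 lost this last call without BetP-Gel@Ran replicate 3 or untreated replicate 1.

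Vsig4, a receptor of resident macrophages for C3b and its inactive form, was at 1.38, 1.53 and 1.11 FPKM in BetP-Gel@Ran libraries, 2.21, 2.57 and 2.02 in CNV libraries and 0.715, 0.342 and 0.292 in untreated libraries. Its levels were low in all groups, with the same order of groups and no overlap. Vsig4 rose by 1.18 ± 0.13 in CNV against untreated libraries (adjusted p = 0.000143) and by 0.70 ± 0.13 in BetP-Gel@Ran against untreated libraries (adjusted p = 0.00402). It fell by 0.48 ± 0.13 in BetP-Gel@Ran against CNV libraries (adjusted p = 0.0426), a call that held in 8 of 18 alternatives.

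**Figure D2:**
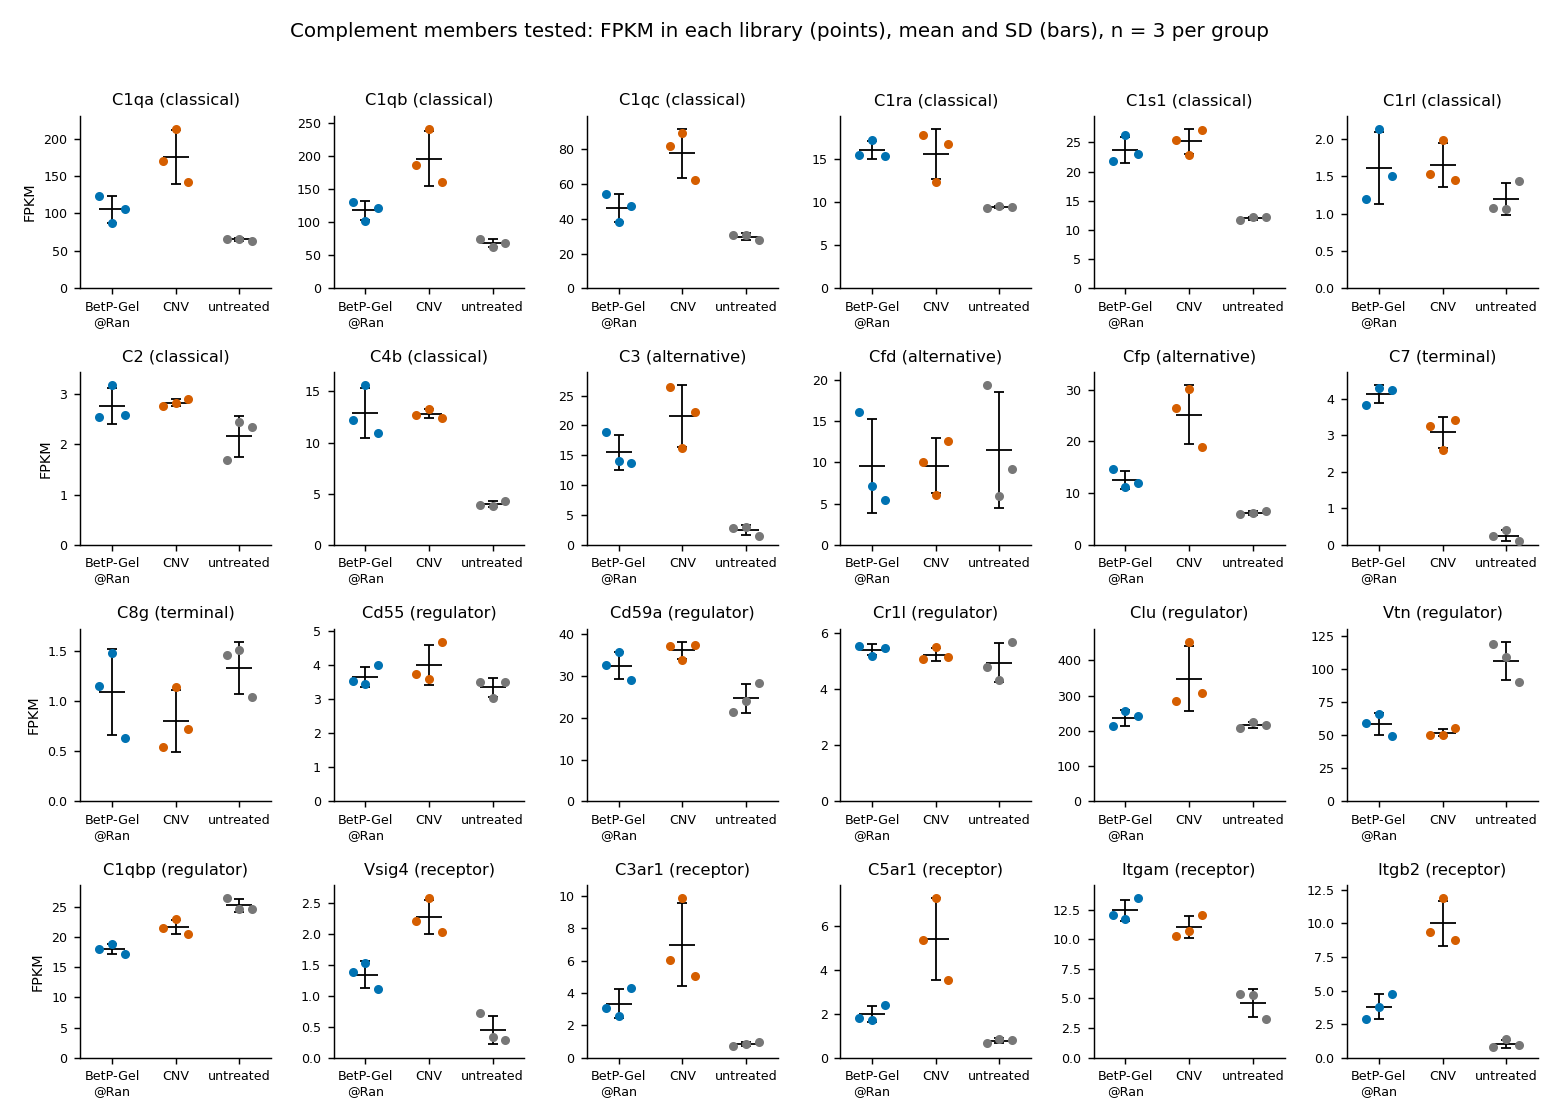
FPKM (y axis, from 0) of the 24 tested members in each library, with 1 panel per member and its role in the title. Points are libraries of BetP-Gel@Ran (blue), CNV (orange) and untreated (grey), and bars give mean and SD of 3 libraries. Itgb2 lies at 2.90 to 4.75 FPKM in BetP-Gel@Ran, 8.75 to 11.9 in CNV and 0.791 to 1.38 in untreated libraries, while C4b overlaps between BetP-Gel@Ran and CNV.

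The panels of member levels show several orders of the groups among the 16 members that rose in CNV libraries. In 8 of them every BetP-Gel@Ran library lay below every CNV and above every untreated library: C1qa, C1qb, C1qc, Cfp, Itgb2, C3ar1, C5ar1 and Vsig4. Among all tested genes 5.3% had that order. Of the 24 tested members 0 had the opposite one, which 5.03% of all tested genes had. In C4b, C1s1, C1ra, C3, Itgam and Cd59a the BetP-Gel@Ran and CNV libraries overlapped above the untreated ones, and in C7 the BetP-Gel@Ran libraries were highest. In Clu every BetP-Gel@Ran library lay below every CNV one, and BetP-Gel@Ran and untreated libraries overlapped. This grouping was read from the values and was not tested. The difference in change between members was not tested either.

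The 10 members too low to test held 0 to 140 reads per library, and Masp2 had 0 in all 9 libraries. Masp1 had 81 to 140 reads per library and missed the filter in FPKM, with a gene length of 9833 bases. Masp2 shares 54.9% of its exon bases with Tardbp on the opposite strand, and without strand such shared reads cannot be told apart, so this 0 does not show that Masp2 RNA was absent. Cfi, factor I, the protease that inactivates C3b and C4b, had 5, 6 and 4 reads in BetP-Gel@Ran libraries, 21, 30 and 28 in CNV libraries and 1, 4 and 6 in untreated libraries. All CNV libraries lay above the others, which overlapped. Cfb, factor B, the protease of the alternative convertase, had 11, 10 and 21 reads in BetP-Gel@Ran libraries, 23, 11 and 12 in CNV libraries and 2, 2 and 5 in untreated libraries. Its untreated libraries were the lowest, and it shares 79.5% of its exon bases with Gm20547. Hc, which codes for C5, had 0, 2 and 2 reads in BetP-Gel@Ran libraries, 0, 3 and 3 in CNV libraries and 0, 6 and 11 in untreated libraries, too few to set the groups apart. C6, the partner of C7 in the terminal complex, had 29, 14 and 20 reads in BetP-Gel@Ran libraries, 34, 30 and 25 in CNV libraries and 3, 2 and 1 in untreated libraries. Like C7 it was lowest in every untreated library. Itgax, the alpha chain of complement receptor 4, had 36, 37 and 51 reads in BetP-Gel@Ran libraries, 89, 69 and 72 in CNV libraries and 10, 15 and 8 in untreated libraries, with no overlap between groups.

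**Figure D3:**
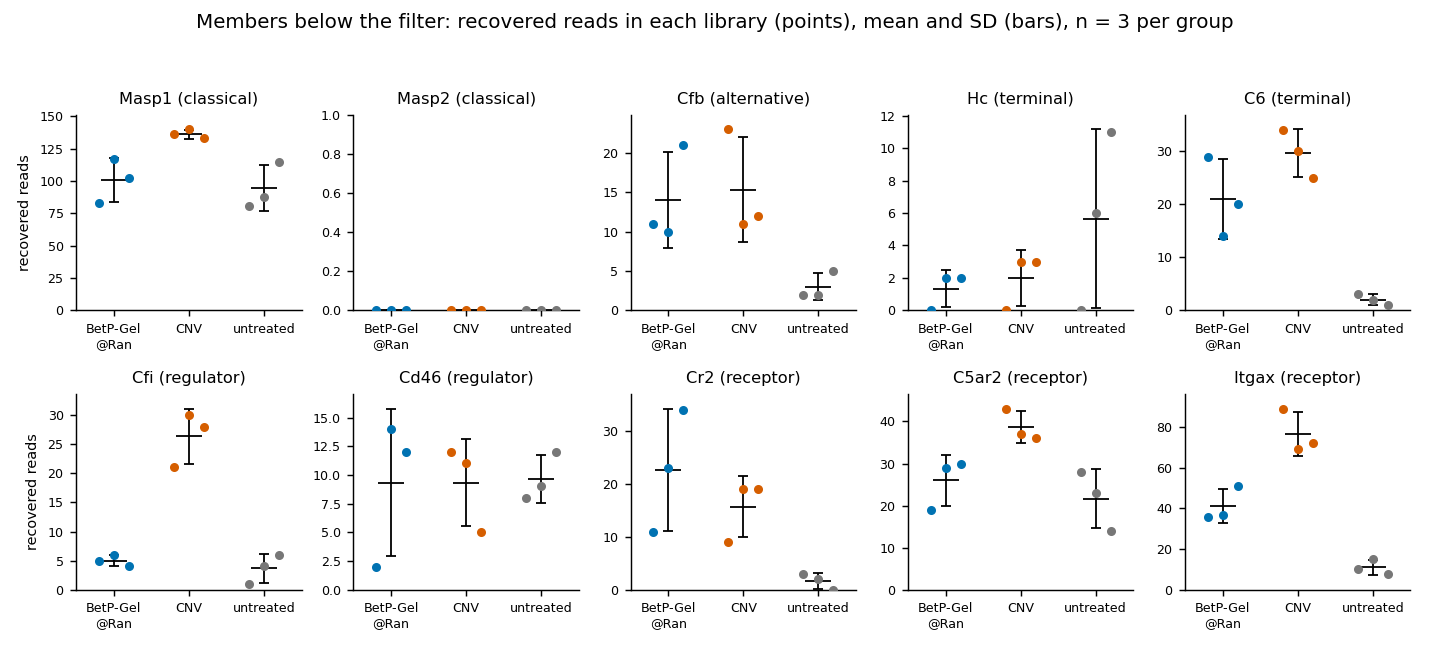
Reads recovered from the deposited FPKM (y axis, from 0) in each library for the 10 members below the filter, with 1 panel per member. Points are libraries of BetP-Gel@Ran (blue), CNV (orange) and untreated (grey), and bars give mean and SD of 3 libraries, not scaled for depth. Cfi lies at 4 to 6 reads in BetP-Gel@Ran, 21 to 30 in CNV and 1 to 6 in untreated libraries.

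Among the low members plotted by reads, C6, Cfb, Cr2 and Itgax were lowest in every untreated library. The share of all low genes with that order was not counted. Cr2, receptor 2 of B cells and follicular dendritic cells, had 68 reads in all in BetP-Gel@Ran, 47 in CNV and 5 in untreated libraries. C5ar2, the other C5a receptor, had 78 reads in BetP-Gel@Ran, 116 in CNV and 65 in untreated libraries. Masp1, a protease of the lectin pathway, had 302 reads in BetP-Gel@Ran, 409 in CNV and 284 in untreated libraries. Cd46, a cofactor of factor I that in mice is known mainly from testis, had 28 reads in BetP-Gel@Ran, 28 in CNV and 29 in untreated libraries. When genes were fitted with no filter, C6, Cfi and Itgax passed in CNV against untreated libraries, where 3280 of all 29374 genes were higher. The log2 changes were 0.49 ± 0.082 for C6 (adjusted p = 0.00362), 0.58 ± 0.087 for Cfi (adjusted p = 0.00213) and 0.71 ± 0.082 for Itgax (adjusted p = 0.000612). In that fit Cfi was lower in BetP-Gel@Ran than in CNV libraries (-0.54 ± 0.087, adjusted p = 0.025), and C6 and Itgax were higher in BetP-Gel@Ran than in untreated libraries (0.37 ± 0.082, adjusted p = 0.0199 and 0.39 ± 0.082, adjusted p = 0.0152).

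A further 30 genes of the pathway and its relatives that are not members were set beside them, of which 11 could be tested. In CNV against untreated libraries 3 rose and 2 fell, where 22.5% of all genes rose and 22.1% fell. In BetP-Gel@Ran against CNV libraries 1 rose and 2 fell, where 5.81% of all genes rose and 8.27% fell. In BetP-Gel@Ran against untreated libraries 3 rose and 1 fell, where 16.1% of all genes rose and 18.1% fell. The median log2 changes of the 11 genes were -0.046, -0.123 and -0.006 in these comparisons. Fcna, ficolin A, a lectin pathway recognition molecule of mouse macrophages, was at 10.2, 6.89 and 5.53 FPKM in BetP-Gel@Ran libraries, 15.3, 12.8 and 10.5 in CNV libraries and 4.50, 4.26 and 4.42 in untreated libraries. No groups overlapped, and BetP-Gel@Ran libraries were in the middle. Fcna fell by 0.72 ± 0.19 in BetP-Gel@Ran against CNV libraries (adjusted p = 0.0366) and rose by 1.35 ± 0.19 in CNV against untreated libraries (adjusted p = 0.000486). Cd93, once described as a C1q receptor, changed by -0.65 ± 0.18 in BetP-Gel@Ran against CNV libraries (adjusted p = 0.0431) and by 1.35 ± 0.18 in CNV against untreated libraries (adjusted p = 0.000364). Cd93 reached 1 FPKM in no untreated library, so it was tested through the other groups. Susd4, a membrane protein with complement control repeats, went the other way: it was higher by 0.78 ± 0.16 in BetP-Gel@Ran against CNV libraries (adjusted p = 0.0164) and lower in CNV than in untreated libraries, -1.001 ± 0.16 (adjusted p = 0.000843). C1ql1, a C1q-like protein of neurons and not a complement component, fell in CNV against untreated libraries, -1.22 ± 0.21 (adjusted p = 0.00136).

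Summed markers of myeloid cells were also highest in CNV libraries. The 12 macrophage and microglia markers, all tested, summed to 869, 696 and 889 FPKM in BetP-Gel@Ran libraries, 1682, 1936 and 1313 in CNV libraries and 301, 327 and 344 in untreated libraries. Of the 12, 11 rose in CNV against untreated libraries, 7 fell in BetP-Gel@Ran against CNV libraries and 11 rose in BetP-Gel@Ran against untreated libraries. Of all genes, 22.5% rose, 8.27% fell and 16.1% rose in these comparisons. Cx3cr1, among the 11, reached 1 FPKM in no untreated library. Those with the largest falls against CNV libraries were Tyrobp, -1.19 ± 0.19 (adjusted p = 0.00873), Lyz2, -1.01 ± 0.15 (adjusted p = 0.00733), and Ctss, -1.004 ± 0.18 (adjusted p = 0.0115). Tmem119, Cx3cr1 and P2ry12, which mark microglia, did not pass against CNV libraries. Csf1r and Mrc1 did not pass there either (adjusted p = 0.0505 and 0.0807). The 9 neutrophil markers, 6 of them tested, summed to 16.5, 16.5 and 125 FPKM in BetP-Gel@Ran libraries, 449, 783 and 328 in CNV libraries and 27.6, 39.1 and 25.2 in untreated libraries. All 6 rose in CNV against untreated libraries and fell in BetP-Gel@Ran against CNV libraries, led by S100a8 at -4.07 ± 0.82 (adjusted p = 0.0222), and 1 was higher and 1 lower in BetP-Gel@Ran against untreated libraries. Of these, Cxcr2 reached 1 FPKM in CNV libraries alone, and Csf3r and Retnlg in no untreated library. The filter kept them through groups where they were high, so the count of 6 is not independent of it. Both sums had CNV replicate 2 highest, the library that was also highest for the C1q chains, Cfp, C5ar1, C3ar1 and Itgb2. The same library was the lowest CNV library for C3, C7, C1ra, C1s1 and Cd59a, which also rose in CNV against untreated libraries. The part of these cells in the complement results was not tested. Markers of liver plasma proteins summed to 0.523 to 2.08 FPKM over the 9 libraries, with Serpina1a at 0 in each, so transcripts of liver were near absent.

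**Figure D4:**
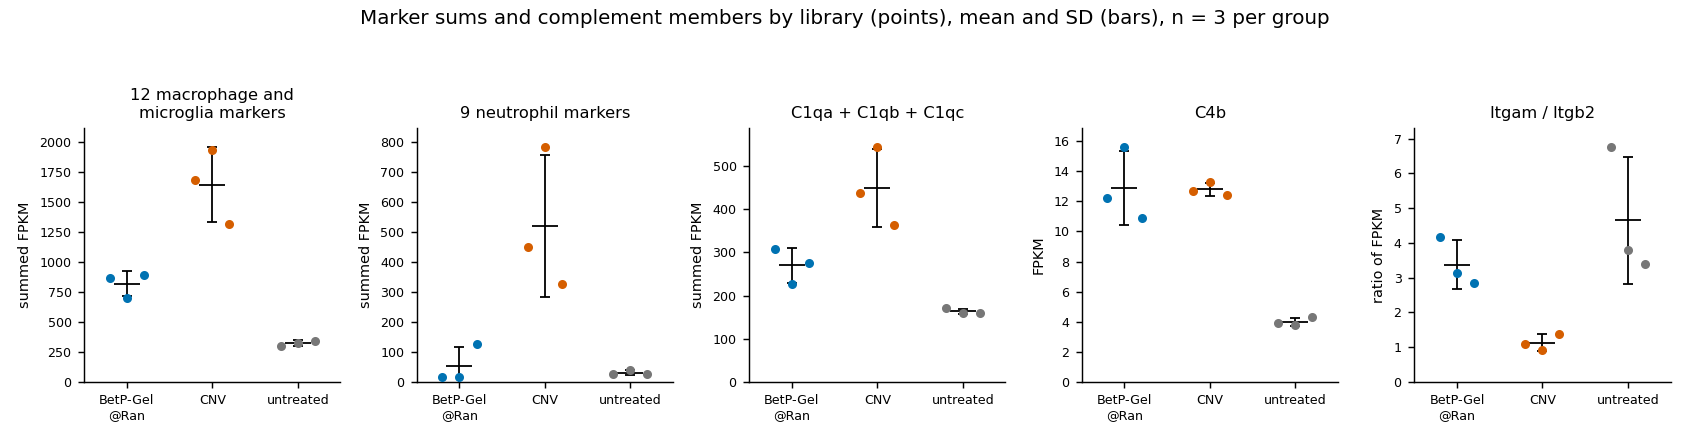
Summed FPKM of 12 macrophage and microglia markers, of 9 neutrophil markers and of the C1q chains, FPKM of C4b, and the ratio of Itgam to Itgb2 FPKM (y axes, from 0) in each library. Points are libraries of BetP-Gel@Ran (blue), CNV (orange) and untreated (grey), and bars give mean and SD of 3 libraries, the lower neutrophil bar of BetP-Gel@Ran running below 0. The marker sums and the C1q sum are highest in CNV, C4b overlaps between BetP-Gel@Ran and CNV, and the Itgam to Itgb2 ratio is lowest in CNV, at 0.901 to 1.38.

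The panels of marker sums and members set the C1q chains beside the sum of macrophage and microglia markers. In that sum BetP-Gel@Ran libraries likewise lay between the other groups with no overlap. Lyz2 made up most of it, with a mean of 1157 of 1643 FPKM in CNV libraries. Not every marker had that order: for Cx3cr1, Tmem119 and P2ry12 BetP-Gel@Ran and CNV libraries overlapped. For C4b BetP-Gel@Ran and CNV libraries overlapped. For the neutrophil sum BetP-Gel@Ran replicates 1 and 2 lay below every untreated library and replicate 3 above. S100a8 and S100a9 made up most of that sum, at 37.6 and 83.1 of 125 FPKM in replicate 3. Single markers differed: Csf3r was highest in replicate 3, at 1.57 FPKM against 0.933 and 0.998, and Retnlg lowest, at 1.29 against 2.60 and 2.80. Both lay above every untreated library in all BetP-Gel@Ran libraries. BetP-Gel@Ran replicate 3 had the highest neutrophil sum of its group, and for Itgb2, C3ar1 and C5ar1 it was also the highest BetP-Gel@Ran library. Other members differed: for Cfp and the C1q chains BetP-Gel@Ran replicate 1 was the highest, and for Vsig4 replicate 3 was the lowest.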

How the data were processed

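RNA of choroidal and retinal flat mounts was sequenced in 9 libraries, 3 per group, grouped by their titles. RNA was extracted with Trizol, selected with poly-T beads and made into libraries with a NEBNext Ultra kit, per the labels' protocols, and that kit does not mark the strand. The authors deposited FPKM per gene. Genes were counted with HTSeq 0.6.0 on mm10, per the submitters' processing notes, while the annotation, the counting mode and the aligner used are not given in the sources used here. As a check, coordinates in the deposited table were identical to GENCODE M21 for all 34 members. Each FPKM times its gene's length came out as whole reads for 100% of values, within 0.05 of a read, once divided by a step found for that library, and voom was run on the reads so recovered. The library sizes that these steps imply differed from the sums of the reads, so the deposited FPKM had been scaled by another factor, which is not stated. All value columns were used.

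The 14086 genes that reached 1 FPKM or more in 3 or more libraries were tested. limma 3.58.1 (R 4.3.3) fitted log2(FPKM + 1) to all 9 libraries together, with a mean for each group and the trend and robust options (statmod 1.5.0). Two-sided p-values were adjusted by the Benjamini-Hochberg method over all tested genes of a comparison, and 0.05 was the threshold. No exact test was run, because 3 against 3 libraries give p = 0.1 at the smallest. The fit was tested on simulated data, where its estimates lay near the changes put in but part of these changes were not called, more of the smaller ones. The bar first set for the share called was missed, and the test was then changed to check the estimates and the share of false calls. Promoters are RefSeq windows of GRCm38.p6.

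The members, their roles and the other gene lists were chosen with earlier results of these data known. Values in every library are given for members that passed any test and for core members of each role. Changes with SE and adjusted p are given for the 12 called members with the largest change in a comparison and for core members, other members are given by range and count, and of each other list at most 5 called genes are named. Statistics of Vtn, C1ra, C1qbp, C2, C1rl and Vsig4 beyond that rule were added after their values were seen. Some genes of the other lists are not reported here. Alternatives were quantile normalization, FPKM divided by its sum, no filter or one of 5 FPKM, a pseudocount of 0.1, limma voom, the replicate number as a block, only the 2 groups compared, the fit without trend and robust options, and each library left out. Scaling to each library's total reads was added after the data were seen.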

Additional observations from a re-analysis of the deposited data

How the results depend on the processing

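Depth limits most of the 10 members below the filter, less so Masp1, which had 81 to 140 reads per library. The rest are limited by 3 libraries per group. The same replicate numbers did not pair the libraries, with correlations of deviations of -0.148 to 0.084 over 9 pairs. With the number as a replicate block, 523 genes were higher in BetP-Gel@Ran than in CNV libraries in place of 818, and 8 members lower in place of 9. Members called lower in CNV against untreated libraries were 1 in place of 2 with no filter, quantile normalization, FPKM divided by its sum, only the 2 groups or scaling to total reads, and 1 to 2 with a library left out. Members lower in BetP-Gel@Ran than in CNV libraries were 4 with no filter and 2 to 10 with a library left out. Over all genes, a filter of 5 FPKM left 1735 higher in CNV and 1337 higher in BetP-Gel@Ran than in untreated libraries, and 1438 to 2482 were higher in BetP-Gel@Ran than in untreated libraries with a library left out. BetP-Gel@Ran against CNV libraries gave 263 higher and 590 lower genes with no filter, 537 and 652 with only the 2 groups, and 126 to 1457 higher and 320 to 1758 lower with a library left out. FPKM divided by its sum left 1555 genes lower in BetP-Gel@Ran than in untreated libraries. Signs turned for uncalled members alone. In BetP-Gel@Ran against CNV libraries the change was 0.0016 for C2 and 0.0158 for C4b with quantile normalization, and 0.0157 for C4b with FPKM divided by its sum. With a library left out it was -0.1044 to 0.0158 for C2, -0.1389 to 0.102 for C4b, -0.1027 to 0.1477 for C1ra, -0.1719 to 0.0854 for C1rl and -0.5017 to 0.2039 for Cfd. Cfd was at -0.4976 to 0.2804 in CNV and -0.6467 to 0.1938 in BetP-Gel@Ran against untreated libraries, and Cr1l at -0.0016 to 0.1625 in CNV against untreated libraries. The cause was not tested, beyond the fewer genes or libraries in each fit.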
